A study of Mus musculus with 22 samples.

Results

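Granulation tissue from Mmp13-/- mice was compared between 14 d and 21 d after a viscose cellulose sponge was implanted under the dorsal skin. The comparison used 8 of the 22 arrays of the series, 4 from Mmp13-/- mice at 14 d and 4 from Mmp13-/- mice at 21 d, chosen by genotype and day alone. All of these mice lacked Mmp13 (collagenase-3, a secreted proteinase that cleaves fibrillar collagen), were 5 to 8 weeks old, carried the background labelled C57BL/6 x 129 mixed and gave 1 array each. The series description adds that the line was backcrossed into C57BL6 and that the WT mice came from heterozygotes of that line. The 4 WT arrays of 14 d and the 4 of 21 d, same sponge model and age range, served for comparison and for estimating a technical term described below. RNA came from the ends of the sponge, so each value is an average over all the cells there, and fewer cells of a type and less RNA per cell cannot be told apart.

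The sponge is first filled by inflammatory cells and then by fibroblasts, new vessels and collagen, and the tissue later becomes poorer in cells. With time such tissue passes from cell growth to matrix organisation. Interferon-stimulated genes are a set switched on together when cells sense type I or type II interferons, and their products restrict viruses (Ifit, Mx and Oas families), tune the pathway itself (Usp18, Irf7) or recruit T cells (Cxcl9, Cxcl10). Lymphatic vessels, which grow into healing tissue, carry the hyaluronan receptor Lyve1 and the growth factor receptor Flt4.

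Values are log2 intensities on a mouse expression array, and a log2 difference is the level at 21 d minus the level at 14 d. For each gene the brightest of the probe sets that carry only its name was used, which gave 18193 genes from 45037 probe sets. Arrays were labelled in 2 hybridization series, series 1 from 2 µg and series 2 from 250 ng of total RNA with another kit, and this division runs along the days. All 4 arrays of 21 d were series 2, whereas 3 arrays of 14 d were series 1 and only replicate 4 was series 2. The fit therefore carried a series term. Its estimate came from the 14 d arrays of both genotypes, since only there were both series used, and 13.3% of probe sets (5985) passed the adjusted test for it. The weight of each array in the log2 difference shows what follows. The arrays of 21 d entered with 0.25 each, replicate 4 of Mmp13-/- 14 d with -0.625 and the other arrays of its group with -0.125 each. Through the series term, replicate 4 of WT 14 d also entered, with -0.375, and the other WT arrays of 14 d with 0.125 each.

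The collagen gene Col1a1, which encodes the main chain of type I collagen, shows what the series term did. Its level at 14 d was 11.11, 11.27 and 11.24 on the series 1 arrays and 12.90 on the series 2 array, and 13.02, 13.06, 13.10 and 12.95 at 21 d. The series 2 array of 14 d lay next to the 21 d arrays and the series 1 arrays far below them. The adjusted log2 difference was -0.03 ± 0.18 (SE), against 1.40 with no series term.

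The targeted gene was checked first. Mmp13 read 8.33, 7.91, 8.51 and 8.48 in Mmp13-/- tissue at 14 d and 7.72, 8.22, 8.07 and 7.62 at 21 d, below every WT array of those days, which spanned 10.55 to 12.02. The arrays therefore matched their labels, although Mmp13 did not read at the floor of the scale, and the position of its probes relative to the deletion is not given in the sources used here. Tissue markers were in place: across the 8 arrays the collagen gene Col3a1 lay between 13.14 and 13.26 and the macrophage receptor Csf1r between 11.78 and 12.16, and the epidermal keratin gene Krt14 between 3.11 and 3.64.

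Few single probe sets passed the adjusted test. By limma with Benjamini-Hochberg adjustment over all probe sets, 36 of 45037 (0.0799%) differed between 14 d and 21 d in Mmp13-/- tissue, 14 higher and 22 lower at 21 d. At an unadjusted p under 0.05 there were 6170 (3274 higher, 2896 lower), and 173 also had an absolute log2 difference over 1, the size threshold used in the study between days in WT tissue (61 higher, 112 lower). In WT tissue the same fit called 189 (0.42%), and 6370 (14.1%) had an unadjusted p under 0.05 (3426 higher, 2944 lower). No probe set passed the adjusted test for a difference between the genotypes in their change from 14 d to 21 d by limma, while 6.58% (2965) had an unadjusted p under 0.05. The Mmp13-/- and WT changes rest on the same series estimate, so they are not independent of each other. In the difference between the genotypes the series term cancels.

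**Figure D1:**
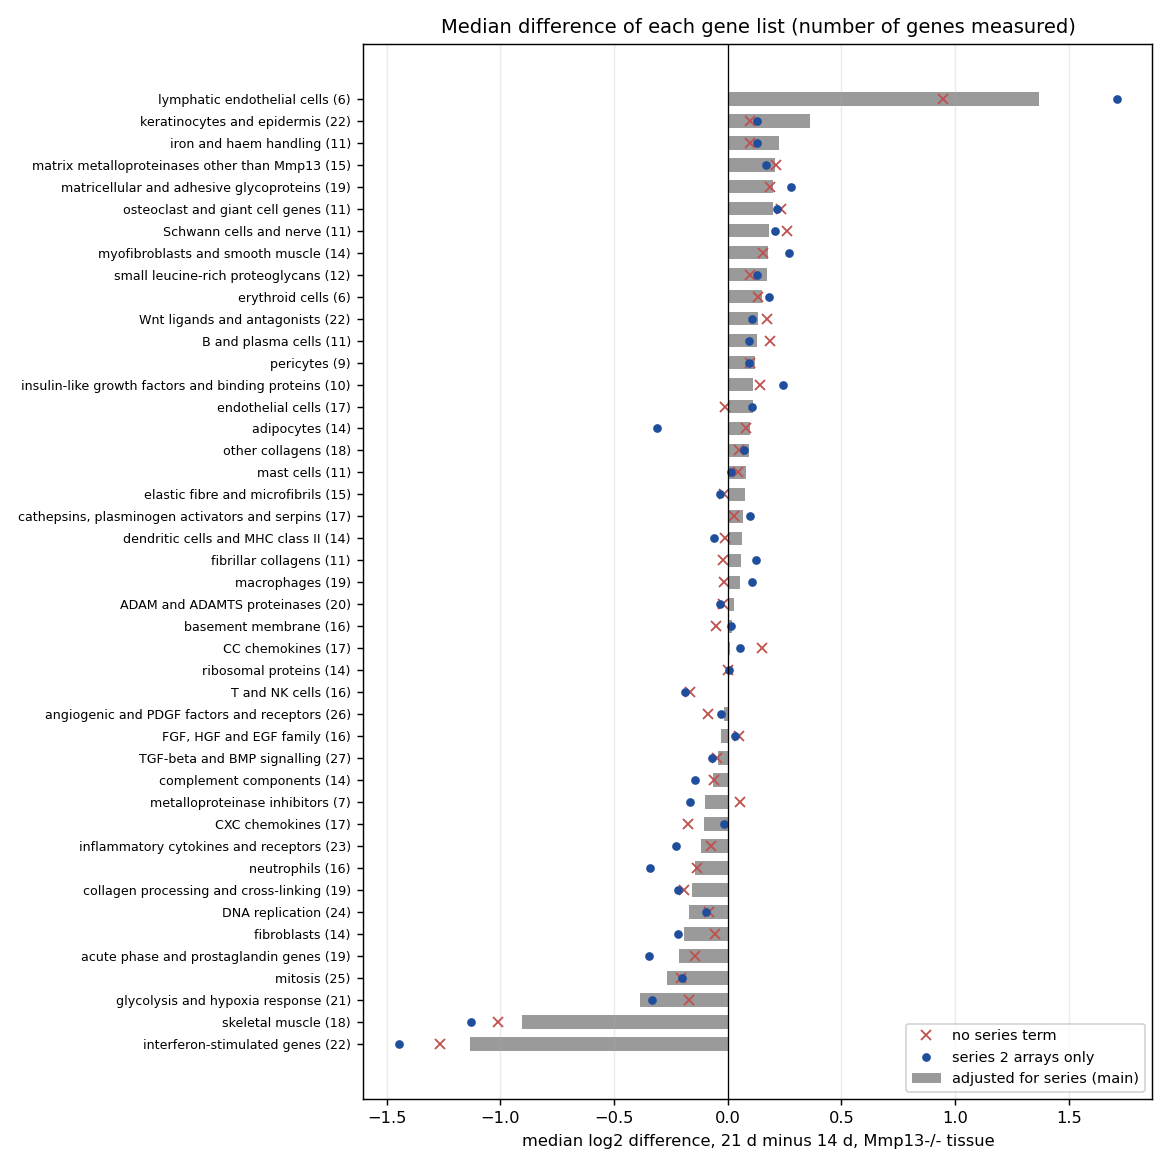
Median log2 difference (horizontal axis, 21 d minus 14 d, Mmp13-/- tissue) of 44 gene lists (vertical axis, number of genes measured in brackets). Grey bars give the fit with a series term, crosses the fit without it and points the series 2 arrays alone; the interferon-stimulated genes lie lowest at -1.13 and the lymphatic endothelial markers highest at 1.37, while most lists lie close to 0.

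Over all 18193 genes the median log2 difference was 0.00, with 6.96% higher and 7.54% lower at an unadjusted p under 0.05. Because a list can move while its members miss adjustment over the whole array, each list is given by its median and by counts to be read against these shares, with no test of the list. The lists and their members were chosen with earlier results of these data known, so a rank among them is a description only. A second count is of genes whose 4 arrays of 21 d all lay above or all below the 4 of 14 d. That held for 7.94% of all genes upward and 5.13% downward, and it compares values with no series term, so it also takes in the series difference.

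The interferon-stimulated genes had the lowest median of the 44 lists. Of 22 measured, 21 had lower adjusted levels at 21 d, 19 of these at an unadjusted p under 0.05, and 19 had all 4 arrays of 21 d below all 4 of 14 d. The median log2 difference was -1.13, and it was -1.44 on the series 2 arrays alone and -1.26 without the series term. None passed adjustment over all probe sets by limma, whereas 16 passed with no series term, 11 without replicate 4 of WT 14 d, 10 on the 8 Mmp13-/- arrays with no term and 8 without replicate 3 of 21 d. The mean level of the 22 genes was 7.96, 8.25, 8.34 and 8.67 on the 4 arrays of 14 d and 7.15, 6.76, 7.56 and 7.13 on those of 21 d, so the groups did not overlap and replicate 3 of 21 d stood highest in its group. Without replicate 4 of Mmp13-/- 14 d, where the series term rests on WT tissue alone, the median was -0.43 and 2 genes had an unadjusted p under 0.05. The count of non-overlapping genes without that array was 19, but the share over all genes was then 10.5%. The remaining arrays of 14 d were all series 1 and those of 21 d all series 2, so day and series cannot be told apart in that count.

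**Figure D2:**
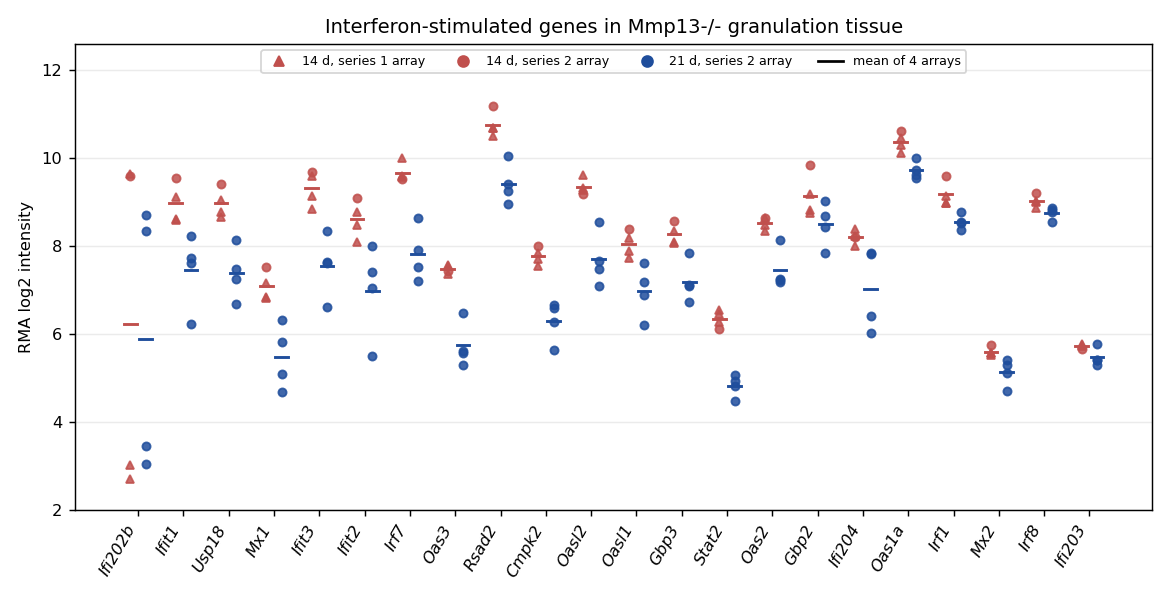
Log2 intensity (vertical axis) of the 22 interferon-stimulated genes (horizontal axis) on each array of Mmp13-/- tissue, red for 14 d and blue for 21 d, with triangles for series 1 and circles for series 2 arrays and a bar for the mean of 4. The blue points lie below the red ones for 19 genes, and Ifi202b splits into high and low arrays on both days.

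Promoter sequence is shown for 5 of these genes and for the chemokine gene Cxcl10, described after them, because a shared element can be seen by eye in them. Each stretch is written 5′ to 3′ on the strand of the gene, from GRCm38.p6 (RefSeq), all upstream of the annotated start, with capitals marking the letters GAAANNGAAA or its reverse complement TTTCNNTTTC, the core of the interferon-stimulated response element. Ifit1 lies at chr19:34640755-34640843, plus strand, Ifit3 at chr19:34583343-34583446, plus strand, Rsad2 at chr12:26456533-26456602, minus strand, Oas3 at chr5:120777695-120777764, minus strand, Gbp2 at chr3:142620574-142620643, plus strand, and Cxcl10 at chr5:92349063-92349132, minus strand.
Ifit1: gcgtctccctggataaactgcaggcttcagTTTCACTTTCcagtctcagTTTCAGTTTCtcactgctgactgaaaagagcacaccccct
Ifit3: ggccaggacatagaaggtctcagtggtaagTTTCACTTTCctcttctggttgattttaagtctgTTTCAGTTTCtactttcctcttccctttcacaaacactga
Rsad2: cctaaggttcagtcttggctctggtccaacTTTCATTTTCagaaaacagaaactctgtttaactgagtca
Oas3: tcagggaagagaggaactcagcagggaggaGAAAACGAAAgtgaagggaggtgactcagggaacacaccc
Gbp2: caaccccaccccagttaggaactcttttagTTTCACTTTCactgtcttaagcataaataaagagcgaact
Cxcl10: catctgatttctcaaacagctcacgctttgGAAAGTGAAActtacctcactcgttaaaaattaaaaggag
Ifit1 and Ifit3 each held 2 such matches, and Rsad2, Oas3, Gbp2 and Cxcl10 held 1 each. The element, searched on both strands with overlapping matches counted, lay in the promoter windows (250 bases before to 50 after the start) of 9 of the 17 list genes that have a window, and of 3.99% of all genes with a window (1079 of 27025). A match describes the letters only.

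Among the genes that restrict viruses, the Ifit family kept its days apart. Ifit1 read 8.60, 9.12, 8.62 and 9.56 at 14 d and 7.61, 6.22, 8.23 and 7.73 at 21 d, an adjusted log2 difference of -1.64 ± 0.41 (SE; limma adjusted p = 0.105). Ifit3 had a log2 difference of -1.56 ± 0.42 and Ifit2 of -1.47 ± 0.55, and in Ifit1, Ifit2 and Ifit3 the groups did not overlap. Mx1, a GTPase gene, read 6.81, 7.17, 6.85 and 7.53 at 14 d against 5.10, 4.69, 6.32 and 5.81 at 21 d. Rsad2 (viperin) differed by -1.27 ± 0.30 and Mx2 by -0.47 ± 0.21. The highest array of 21 d was replicate 3 for Ifit1, Ifit2, Ifit3, Mx1 and Rsad2 alike.

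The Oas genes encode enzymes and relatives that sense double-stranded RNA. Oas3 read 7.37, 7.56, 7.54 and 7.44 at 14 d and 5.29, 5.62, 6.49 and 5.57 at 21 d, a log2 difference of -1.36 ± 0.29 (limma adjusted p = 0.0736). Oas1a differed by -0.74 ± 0.16 with an adjusted p of 0.0694 by limma, and Oas2, Oasl1 and Oasl2 by -0.90, -1.07 and -1.19. The 14 d values of Oas3 lay close together and its 21 d values were spread. Each of these Oas genes kept its 21 d arrays below its 14 d arrays.

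The regulators of the pathway also had lower values at 21 d. Usp18, a protease that removes Isg15 and restrains the interferon receptor, came closest to the threshold among the list genes: it read 8.67, 9.04, 8.77 and 9.41 at 14 d and 7.25, 6.69, 8.15 and 7.48 at 21 d, a log2 difference of -1.62 ± 0.31 with an adjusted p of 0.0501 by limma, or 3.08 times lower. Irf7, the factor that amplifies type I interferon production, read 9.59, 10.01, 9.57 and 9.53 against 7.53, 7.20, 8.65 and 7.92. Stat2 differed by -0.96 ± 0.23, Irf1 by -0.74 ± 0.19 and Irf8 by -0.43 ± 0.14. None of the regulators overlapped between the days, and their differences were smaller for Irf1 and Irf8 than for Irf7. Cmpk2 and Gbp2 differed by -1.24 and -0.86, and of these Gbp2 had arrays that overlapped.

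Ifi203, Ifi204, Ifi202b and Gbp2 departed from the list's pattern by p or by overlap. Ifi203 had a log2 difference of 0.02 ± 0.16, the single positive value, and was -0.17 on the series 2 arrays alone. Ifi204 differed by -0.86 with an unadjusted p of 0.111, although its arrays did not overlap. Ifi202b was split: it read 2.71 and 3.01 on replicates 1 and 2 of 14 d but 9.64 and 9.59 on replicates 3 and 4, and 8.71 and 8.34 on replicates 1 and 2 of 21 d but 3.04 and 3.46 on replicates 3 and 4. High and low mice occurred on both days, and its log2 difference was -2.02 ± 2.08. Gbp2 overlapped through replicate 3 of 21 d, at 9.03 against 8.75 and 8.82 on replicates 1 and 3 of 14 d.

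Among the 36 probe sets that passed the test were those of Slfn4, Trim25 and Sp100, which are known as interferon-induced. Slfn4, a schlafen gene of myeloid cells that interferon induces, fell by 1.90 ± 0.36 on the log2 scale (limma adjusted p = 0.0498). It read 11.33, 11.34, 11.06 and 11.34 at 14 d and 8.71, 8.84, 10 and 8.59 at 21 d, 3.73 times lower, with replicate 3 of 21 d again the highest of its group. Probe sets of Trim25, the ubiquitin ligase that activates the RNA sensor RIG-I, and of Sp100, a nuclear body protein, fell by 1.12 and 0.96. Trim25 read 7.34, 7.34, 7.37 and 7.23 against 5.76, 5.84, 6.04 and 6.05. For both genes another, brighter probe set gave smaller log2 differences, -0.55 for Trim25 and -0.18 for Sp100, neither past the test. Ifi44l and Ms4a4c, genes picked after their values were seen, differed by -3.14 ± 0.97 and -1.97 ± 0.41. Replicate 1 of 21 d set much of the first, at 2.72 against 7.24, 8.68 and 6.94 on the other 21 d arrays.

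In WT tissue the median log2 difference of this list was -1.14, 19 genes were lower at an unadjusted p under 0.05, and the mean level was 7.90 to 8.72 at 14 d and 7.16 to 7.35 at 21 d. The lowest of these 14 d levels, 7.90, was that of replicate 4, the series 2 array. Through the series term replicate 4 of Mmp13-/- 14 d entered the WT difference with -0.375, so the 2 medians are not independent. Of the 22 genes, 2 had an unadjusted p under 0.05 for the difference between genotypes, against 6.43% of all genes. They were Irf8, with -0.43 in Mmp13-/- and 0.01 in WT tissue (limma, unadjusted p = 0.00641 for the difference), and Mx2, with -0.47 in Mmp13-/- and -0.96 in WT (unadjusted p = 0.0424). Neither passed adjustment. For Usp18 the Mmp13-/- change minus the WT change was -0.09 ± 0.33 (SE).

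The chemokines Cxcl9 and Cxcl10, which draw activated T cells through the receptor Cxcr3 and are induced by interferon gamma, lay lower at 21 d as well. Cxcl10 read 8.76, 8.78, 8.17 and 9.06 at 14 d and 6.01, 4.40, 7.48 and 5.94 at 21 d, a log2 difference of -2.48 ± 0.59 (limma adjusted p = 0.0959). Cxcl9 read 7.83, 8.53, 7.48 and 8.63 against 6.56, 3.36, 7.12 and 5.76. Neither overlapped between days, and in both replicate 2 of 21 d was lowest and replicate 3 highest of its group. The whole list of CXC chemokines had a median of -0.10 over 17 genes. Cxcl2, a neutrophil attractant, differed by -0.80 ± 0.39 in Mmp13-/- tissue and by -1.85 in WT (unadjusted p = 0.0197 for the difference, limma).

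Granzymes, the serine proteases of cytotoxic lymphocytes, had low values at 21 d as well and were chosen as a group after their values were seen. Of 10 granzyme and perforin genes, 7 were lower and 1, Gzmm, higher at an unadjusted p under 0.05, and 6 had no overlap, all downward. Gzma read 7.26, 7.65, 7.69 and 8.47 at 14 d and 6.25, 4.87, 6.79 and 6.36 at 21 d, a log2 difference of -1.91 ± 0.76. Gzmb read 7.10, 7.59, 7.62 and 8.21 against 5.68, 5.08, 6.94 and 6.30. Gzmc, Gzmd, Gzme, Gzmf and Gzmg differed by -2.13, -2.24, -1.64, -1.69 and -2.68, and as close paralogs they may share signal on the array. Gzmk and Gzmm differed by 0.31 and 0.35, and perforin (Prf1) by -0.50 ± 0.59. None passed adjustment, and without replicate 4 of Mmp13-/- 14 d the median of the 10 was -0.44, against -1.67 with all arrays.

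The list of T and NK cell genes, which holds Gzma, Gzmb and Prf1 too, had a median log2 difference of 0.00 over 16 genes. Cd3e, a chain of the T cell receptor complex, read 5.57, 5.45, 5.39 and 5.38 at 14 d and 5.79, 5.67, 5.54 and 5.65 at 21 d, and Cd8a differed by 0.27 ± 0.18. Cd3g had a log2 difference of 0.83 at an unadjusted p of 0.0289. The part of T and NK cell number in the granzyme values was not tested.

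**Figure D3:**
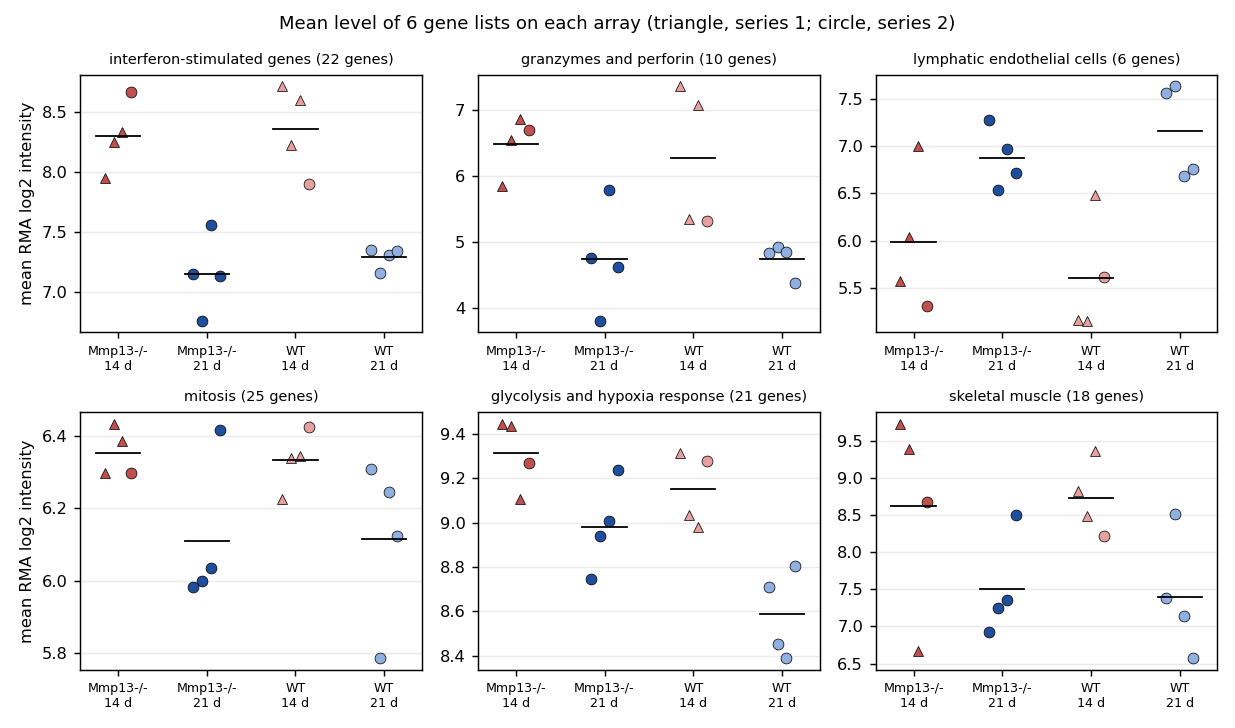
Mean log2 intensity (vertical axis) of the genes of 6 lists on each array, for Mmp13-/- and WT tissue at 14 d and 21 d (horizontal axis), triangles for series 1 and circles for series 2 arrays, with a bar for the mean of 4. The interferon-stimulated genes separate the days in both genotypes, the lymphatic markers overlap through replicate 3 of Mmp13-/- 14 d, and the skeletal muscle genes spread widely within every group.

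Lymphatic endothelial markers had the highest median of the lists. Of 6 measured, 4 were higher at an unadjusted p under 0.05, with a list median of 1.37. Lyve1 read 5.87, 6.91, 8.37 and 5.36 at 14 d and 9.17, 7.43, 8.83 and 8.42 at 21 d, a log2 difference of 2.42 ± 0.82 (limma adjusted p = 0.195). Mmrn1, a protein of lymphatic vessel walls, read 3.18, 4.23, 6.10 and 2.77 against 6.17, 4.79, 5.51 and 5.09. Reln, an extracellular glycoprotein made by lymphatic endothelium, read 4.42, 5.21, 6.17 and 4.34 against 7.20, 6.43, 6.74 and 6.03, and Flt4, the receptor for the growth factor Vegfc, differed by 0.94 ± 0.41. In Lyve1, Mmrn1, Reln and Flt4 replicate 3 of 14 d was the highest of its group and overlapped the 21 d arrays. Without that array, singled out after its values were seen, these 4 genes had their 21 d arrays above their 14 d arrays, against 9.3% of all genes. Leaving out any other Mmp13-/- array separated 0 or 1 of the 6. Without replicate 4 of 14 d the list median was 0.80 and no member had an unadjusted p under 0.05.

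Prox1, the transcription factor that defines lymphatic identity, read 2.21 to 2.97 across the 8 arrays, close to the floor of the scale, with a log2 difference of 0.04 ± 0.20. Pdpn, which fibroblasts also make, read 11.49 to 12.02 and differed by -0.07 ± 0.16. Pan-endothelial genes had a median of 0.11 over 17 genes, none past an unadjusted p of 0.05, so the name of the list rests on Lyve1, Mmrn1, Reln and Flt4. Vegfc itself read 7.25, 7.46, 7.41 and 7.58 at 14 d and 6.59, 6.96, 7.25 and 6.87 at 21 d, a log2 difference of -0.69 ± 0.24. In WT the list median was 2.36, and the Mmp13-/- change minus the WT change of Reln was -1.45 ± 0.58 (unadjusted p = 0.0226, limma), from 1.80 in Mmp13-/- and 3.24 in WT.

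Some genes outside the lists had large positive differences, and Scg2, Tnmd, Fbp1, Mgll, Npl, Sult1a1, Cdkn1c and Cdkn2a were picked after their values were seen. Scg2 encodes secretogranin II, a protein of secretory granules. It read 3.51, 3.42, 4.39 and 3.35 at 14 d and 7.25, 5.61, 6.46 and 5.65 at 21 d, a log2 difference of 2.85 ± 0.68 (limma adjusted p = 0.0967), or 7.23-fold. In WT it rose by 4.49, to 8.56, 8.97, 8.33 and 5.46 (limma adjusted p = 0.0191 in WT). Ptn (pleiotrophin, a heparin-binding growth factor) read 6.37, 7.45, 7.88 and 7.38 against 9.83, 8.97, 8.71 and 9.29, and Tnmd (tenomodulin, a marker of tendon fibroblasts) 6.00, 6.62, 7.01 and 6.54 against 8.93, 7.02, 7.85 and 8.30.

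Several of the picked genes encode enzymes. Mgll, which releases glycerol from monoacylglycerols, read 6.75, 6.77, 6.85 and 6.50 at 14 d and 8.38, 7.50, 8.51 and 7.77 at 21 d, a log2 difference of 1.52 ± 0.34 (limma adjusted p = 0.0794). Fbp1, of gluconeogenesis, differed by 1.58 ± 0.56, Npl, a lyase of sialic acid, by 1.45 ± 0.49 and the sulfotransferase Sult1a1 by 1.03 ± 0.38. Mgll, Fbp1, Npl and Sult1a1 each kept the 21 d arrays above the 14 d arrays.

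**Figure D4:**
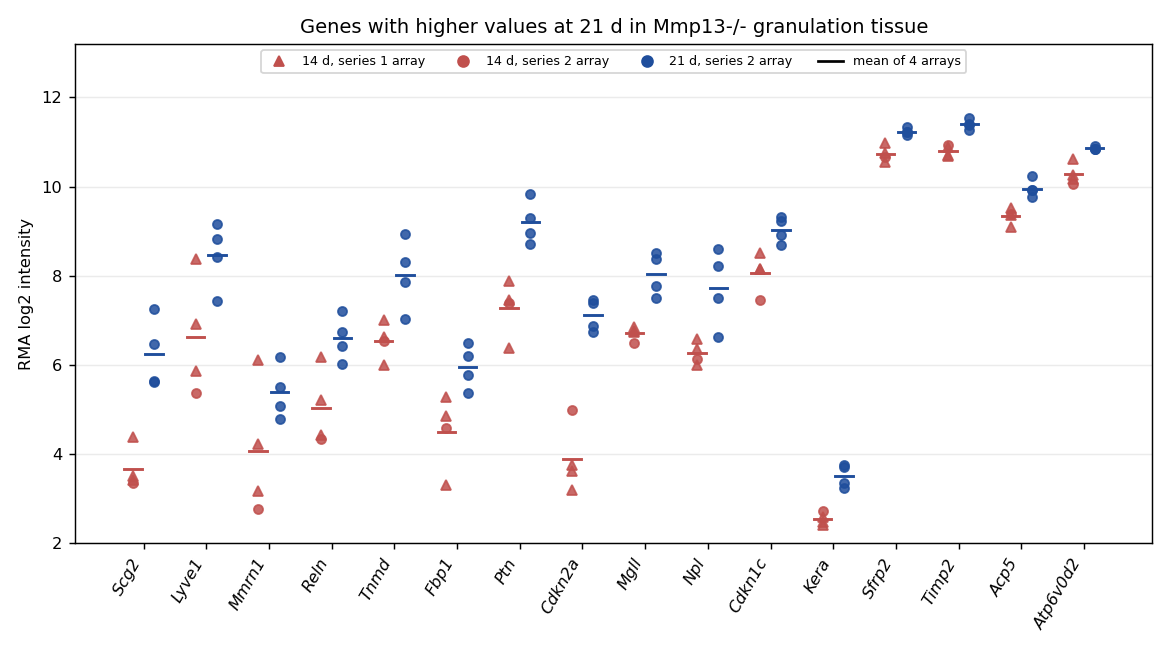
Log2 intensity (vertical axis) of 16 genes with higher values at 21 d (horizontal axis) on each array of Mmp13-/- tissue, red for 14 d and blue for 21 d, triangles for series 1 and circles for series 2, with a bar for the mean of 4. Lyve1, Mmrn1 and Reln overlap through 1 high array of 14 d, and the series 2 circle of 14 d lies above the triangles for Cdkn2a.

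The cyclin-dependent kinase inhibitor genes Cdkn1c and Cdkn2a, whose products hold back the cell cycle, had higher values at 21 d, and neither passed adjustment. Cdkn1c read 8.16, 8.16, 8.51 and 7.46 at 14 d and 8.69, 8.92, 9.31 and 9.23 at 21 d, a log2 difference of 1.40 ± 0.37. Cdkn2a read 3.19, 3.62, 3.76 and 5.00 against 6.73, 7.38, 6.88 and 7.46. Its size depended on the series term, being 1.53 ± 0.38 with the term and 3.22 without it, since the series 2 array of 14 d lay between the series 1 arrays and the 21 d arrays.

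Genes of mitosis had small negative differences. Of 25 measured, 22 had a negative difference and 7 an unadjusted p under 0.05, all lower, with a median of -0.27 against 0.00 for all genes. Cenpe, a kinesin of the kinetochore, read 5.66, 5.82, 5.75 and 5.72 at 14 d and 4.91, 5.32, 4.90 and 5.54 at 21 d, and Kif20a, a kinesin of cytokinesis, 5.20, 5.29, 4.94 and 4.94 against 3.79, 4.75, 4.40 and 4.75. Cenpf differed by -0.66 ± 0.17, but the median over its 3 probe sets was 0.01. Plk1, Birc5 and Cdc20 differed by -0.37, -0.48 and -0.33. The mean of the list was 6.30 to 6.43 at 14 d and 5.98 to 6.42 at 21 d, and replicate 4 of 21 d lay within the 14 d range. Of the 25 genes 4 had no overlap, and leaving out each Mmp13-/- array in turn gave 4 to 7, except 13 without replicate 4 of 21 d, where the share over all genes was 6.87%. DNA replication genes had a median of -0.17 over 24 genes with 3 at an unadjusted p under 0.05, among them Mcm5 at -0.42 ± 0.19 and the regulator E2f1 at -0.32 ± 0.11.

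Glycolysis and hypoxia genes had the lowest median after interferon-stimulated and skeletal muscle genes. The median was -0.39 over 21 genes, and 6 were lower at an unadjusted p under 0.05. Hk2, which traps glucose as its phosphate, read 9.15, 8.91, 9.02 and 9.10 at 14 d and 8.28, 8.88, 8.68 and 8.71 at 21 d. Ndrg1 and Tpi1 differed by -0.58 ± 0.20 and -0.35 ± 0.12, and both overlapped. The median without the series term was -0.17. With the replicate number as a block it was -0.11, and no gene of the list had an unadjusted p under 0.05 in that fit, on the series 2 arrays alone or on the 8 Mmp13-/- arrays with the term. Without replicate 4 of 21 d 11 genes did. Among 19 genes of collagen processing, 3 were lower at an unadjusted p under 0.05, including P4ha2, an oxygen-using enzyme that hydroxylates proline, at -0.53 ± 0.18. In WT 13 of the 21 were lower at an unadjusted p under 0.05. For the difference between genotypes 2 (Bnip3 and Egln3) had an unadjusted p under 0.05, against 6.43% of all genes. The share of all genes lower in WT is not given here, and the counts of the genotypes were not tested against each other.

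Structural matrix genes had medians near 0. The 11 fibrillar collagens had a median of 0.06, none at an unadjusted p under 0.05, and the 18 other collagens a median of 0.09 with 1. Small leucine-rich proteoglycans, which bind collagen fibrils and set their spacing, had 3 of 12 higher. Kera (keratocan) read 2.48, 2.42, 2.59 and 2.72 at 14 d and 3.36, 3.76, 3.25 and 3.70 at 21 d, Lum (lumican) differed by 0.55 ± 0.20 and Ogn (osteoglycin) by 0.85 ± 0.37. Kera did not overlap but sits at the dim end, and Lum and Ogn overlapped. Of 19 matricellular glycoproteins 6 were higher, with a median of 0.20, including Smoc1 (0.76 ± 0.17; limma adjusted p = 0.0871), Smoc2 (0.63 ± 0.26), Comp (0.78 ± 0.30) and Thbs2 (0.53 ± 0.25).

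Of the matrix genes on the lists, Ltbp2 was the one that passed the test. Ltbp2, a microfibril protein related to the binding proteins of latent TGF-beta, fell by 1.07 ± 0.19 on the log2 scale (limma adjusted p = 0.0396), reading 8.53, 8.59, 8.56 and 9.03 at 14 d and 8.06, 7.73, 8.33 and 7.39 at 21 d. The days did not overlap. In WT it differed by -0.44, and the difference between genotypes had an unadjusted p of 0.00571 by limma.

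Among the proteinases that remain in the absence of Mmp13, 3 of 15 metalloproteinases were higher at an unadjusted p under 0.05 and 1 was lower. Mmp2 (gelatinase A) read 9.79, 9.84, 9.87 and 9.25 at 14 d and 10.36, 9.82, 10 and 9.58 at 21 d, a log2 difference of 0.65 ± 0.17 (limma adjusted p = 0.116). It was 0.25 without the series term, and the groups overlapped. Mmp3 (stromelysin-1) read 9.52, 8.59, 9.37 and 8.95 against 10.24, 10.24, 9.67 and 9.46, and Mmp7 differed by 0.69 ± 0.20. Mmp2 and Mmp3 both differed between genotypes in their change at an unadjusted p under 0.05 (0.00879 and 0.0242, limma). In WT their log2 differences were 0.13 and -0.17. Their WT levels at 14 d, 10.25 to 10.86 and 10.53 to 10.71, were already above all Mmp13-/- arrays of 14 d. Timp2, the inhibitor that also helps to activate Mmp2, read 10.68, 10.71, 10.90 and 10.94 against 11.55, 11.40, 11.38 and 11.27. Mmp9 and Adamts4 had log2 differences of 0.06 ± 0.54 and -0.05 ± 0.30.

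Genes of osteoclasts and of the giant cells that form on foreign material had a median of 0.20 over 11, with 7 positive and 4 negative values, and 4 genes were higher at an unadjusted p under 0.05 and none lower. Acp5 (tartrate-resistant acid phosphatase) read 9.09, 9.36, 9.51 and 9.38 at 14 d and 9.92, 10.23, 9.76 and 9.92 at 21 d. Atp6v0d2, a subunit of the proton pump, read 10.16, 10.27, 10.62 and 10.05 against 10.84, 10.92, 10.84 and 10.85. Ctsk, the collagen-cleaving cathepsin K, differed by 0.55 ± 0.25 and the receptor Oscar by 0.80 ± 0.25. Acp5 and Atp6v0d2 did not overlap. In the other direction, among members chosen after their values were seen, Ocstamp, a membrane protein needed for cell fusion, differed by -0.79 ± 0.44, and Tnfrsf11a, the receptor for the osteoclast factor RANKL, by -0.19 ± 0.15 with its 21 d arrays below its 14 d arrays. General macrophage genes had a median of 0.06 over 19, with Mertk, a receptor for dying cells, at 0.45 ± 0.16 and Fcgr1, an interferon-inducible Fc receptor, at -0.83 ± 0.31.

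Inflammatory genes outside the interferon list were counted in both genotypes, and the counts were not tested against each other. Of 23 cytokines and receptors 2 were lower at an unadjusted p under 0.05 in Mmp13-/- and 9 in WT, and of 19 acute phase and prostaglandin genes 4 and 9. Over all genes the share lower in Mmp13-/- was 7.54%, near that of the cytokine list. Over all 45037 probe sets 2896 were lower in Mmp13-/- and 2944 in WT. Acod1, which makes itaconate in activated macrophages, read 9.95, 9.62, 8.98 and 10.24 at 14 d and 8.34, 8.74, 8.61 and 8.47 at 21 d, and its difference of -1.23 in Mmp13-/- compared with -2.23 in WT (unadjusted p = 0.0299 for the difference, limma). Fpr2, a receptor for formyl peptides, differed by -1.29 ± 0.37. Tnfaip3 and Nfkbia, both inhibitors of NF-kB signalling, differed by -0.48 ± 0.15 and -0.42 ± 0.17 with no overlap, and Cfb, of the alternative complement pathway, by -0.86 ± 0.30. Il6 read 4.66, 4.03, 3.79 and 3.27 at 14 d and 4.02, 3.73, 3.07 and 4.82 at 21 d, 0.10 ± 0.47, against -1.59 in WT (unadjusted p = 0.00301 for the difference). Ccl17 differed by 1.09 ± 0.27, with replicate 4 of 14 d lowest at 3.03.

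Among growth factor genes, Wnt pathway members had the following values. Sfrp2, a secreted Wnt-binding protein, read 10.98, 10.55, 10.75 and 10.66 at 14 d and 11.34, 11.15, 11.22 and 11.23 at 21 d. Its relative Sfrp5 differed by 0.69 ± 0.18 and Wnt16 by 0.68 ± 0.21, so 3 of 22 genes of the list were higher at an unadjusted p under 0.05 and none lower. Igfbp7, which binds insulin-like growth factors, differed by 0.50 ± 0.23. Pdgfd, at 0.04 ± 0.43, and Cadm1, an adhesion molecule, at 0.60 ± 0.77, overlapped.

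Ifi202b was split on both days, whereas Npy, a neuropeptide, was split in Mmp13-/- tissue at 21 d alone. It read 9.75, 9.45, 9.26 and 9.42 at 14 d and 3.99, 9.79, 9.62 and 4.79 at 21 d, so 2 of the 4 arrays of 21 d matched 14 d (exact permutation p = 0.4, two-sided, smallest possible 0.0286). In WT the 14 d arrays read 4.54 to 4.75 and 3 of 4 at 21 d read 8.42 to 9.34. Casp4, of the inflammasome, differed by -0.66 ± 0.25 (limma adjusted p = 0.251) and overlapped.

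Markers of other cell types were uneven between arrays. The 18 skeletal muscle genes all had negative differences, with a median of -0.91, but none had an unadjusted p under 0.05. Their mean level was 9.73, 9.39, 6.68 and 8.68 at 14 d and 6.93, 7.24, 7.36 and 8.50 at 21 d, so replicate 3 of 14 d, the array with high lymphatic markers, had the lowest muscle level of all 8. Without it 12 of the 18 genes had their 21 d arrays below their 14 d arrays, against 6.39% of all genes, and leaving out any other Mmp13-/- array gave 0 to 2. The 22 epidermal genes stayed between 3.59 and 3.83 on average on all 8 arrays. Their adjusted median was nevertheless 0.36, with 17 positive differences and 2 genes higher at an unadjusted p under 0.05, against 6.96% of all genes. Without the series term the median was 0.10, and on the series 2 arrays alone 0.13. The WT arrays of 14 d, which enter through that term, had mean levels of 4.68, 3.87, 5.09 and 3.79. The part of skin on WT arrays in this median was not tested. Smooth muscle and myofibroblast genes had 2 of 14 higher, one being Lmod1 at 0.41 ± 0.15, nerve genes 3 of 11, with Sox10 at 0.47 ± 0.13 and Ngfr at 0.38 ± 0.15, and erythroid genes 3 of 6, with Alas2 at 0.75 ± 0.33. The part of these cells in the other differences was not tested.

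The 36 probe sets that passed fell into 2 kinds by their arrays. In 22 (9 higher, 13 lower) all 4 arrays of 14 d lay beyond all 4 of 21 d. In the other 14 (5 higher, 9 lower) replicate 4 of 14 d lay beyond the 21 d arrays and the series 1 arrays did not. Of the 36, 28 were annotated to 1 gene, 2 to several and 6 had no gene name, and for 9 the probe set is the one that stands for its gene. Besides Slfn4 and Ltbp2 these were Atn1, 6720489N17Rik and Cdrt4os1, lower, and Tmem40, Adra1b, Samd5 and Sapcd2, higher.

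Adra1b, an alpha-1 adrenergic receptor, is of the first kind. It read 3.31, 3.49, 3.31 and 3.07 at 14 d and 4.10, 4.08, 4.10 and 3.96 at 21 d, and rose by 0.91 ± 0.16 (limma adjusted p = 0.0386). Tmem40 rose by 0.85 ± 0.15 and Samd5 by 0.94 ± 0.14, the latter with an unadjusted p of 0.000434 for its difference from WT, where it differed by 0.30. Atn1 (atrophin-1, a transcriptional corepressor) read 5.33, 5.44, 5.51 and 4.33 against 3.50, 3.47, 3.53 and 2.85. Probe sets of Ak4, a mitochondrial adenylate kinase that hypoxia induces, and of Flrt3, an adhesion protein, fell by 1.29 and 0.86, and the brightest probe sets of these genes differed in the same direction by -0.84 and -0.82.

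Sapcd2, a regulator of spindle orientation in cell division, is of the second kind. It read 4.73, 4.57, 4.71 and 2.91 at 14 d and 4.49, 4.56, 4.07 and 4.71 at 21 d, so its rise of 1.29 ± 0.17 (limma adjusted p = 0.0102) rested on replicate 4 of 14 d and was 0.23 with no series term. 6720489N17Rik read 2.14, 2.09, 2.26 and 3.28 against 2.20, 2.13, 2.22 and 2.29, and Cdrt4os1 2.63, 2.55, 2.59 and 3.45 against 2.71, 2.55, 2.53 and 2.60. A probe set of the interferon regulator Irf3 is also of this kind: it read 3.74, 3.73, 3.86 and 2.87 against 3.79, 4.03, 4.00 and 4.23, and the brightest probe set of that gene differed by 0.22. For a probe set of Med1, a subunit of the Mediator complex, the call was higher (0.66) although all 3 series 1 arrays of 14 d lay above the 21 d arrays, and the difference without the series term was -0.21.

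Measures of array quality differed between the arrays. The log2 signal at the 3′ end of actin minus that at the 5′ end, which grows as RNA or its labelled copy shortens, was 0.22, 0.29 and 0.32 on the series 1 arrays of Mmp13-/- 14 d and 0.89 on replicate 4, the highest of the 22 arrays, and 0.47, 0.86, 0.58 and 0.51 at 21 d. For Gapdh the values were 0.29, 0.28, 0.48 and 0.90 at 14 d and 0.46, 0.91, 0.54 and 0.49 at 21 d. Replicate 4 of 14 d thus stood above 3 of the 4 arrays of 21 d by both measures. The part of this in the 36 calls was not tested. Without replicate 4 of Mmp13-/- 14 d there was 1 call, which was none of the 36. Without replicate 4 of WT 14 d there were 337, without replicate 3 of 21 d there were 136 and without replicate 3 of WT 21 d there were 183. Leaving out any other 14 d array of either genotype, or replicate 1 of Mmp13-/- 21 d, gave between 7 and 22 calls. On the series 2 arrays alone no probe set passed by limma, and 2912 had an unadjusted p under 0.05.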

How the data were processed

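RNA from sponge-induced granulation tissue was hybridized to Affymetrix mouse expression arrays, 1 sample per mouse, for WT and Mmp13-/- mice at 7, 14 and 21 d, 22 arrays in all. The authors normalized the arrays by RMA, and the deposited values are log2 intensities; per the labels, hybridization series 1 and 2 used different RNA amounts and labelling kits. RMA sets all arrays to a common distribution, so a shift of all genes together cannot be seen, and the number of arrays limits the precision. Array medians were 4.16 to 4.27.

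After removal of 64 array control probe sets, 45037 were fitted with limma 3.58.1 in R 4.3.3 on all 22 arrays, with 6 genotype-by-day groups and the hybridization series as a term (15 residual degrees of freedom), followed by moderated tests and Benjamini-Hochberg adjustment over all probe sets at 0.05. A further count required, beside an unadjusted p under 0.05, a log2 difference over 1 in size, the size threshold being that used in the study between consecutive days in WT tissue, where adjustment of p is not stated. The fit was tested on simulated data. Per the platform annotation 34945 probe sets had 1 gene symbol, 932 several and 9160 none, and a gene was read through its brightest single-gene probe set. Named genes were the largest called changes (up to 12 in each direction), up to 4 genes of each list by smallest adjusted p, and genes the study discusses; others are said to have been picked after their values were seen, as were further list members. The members and the 44 gene lists were chosen with earlier results of these data known. Alternatives were no series term, series 2 arrays alone, Mmp13-/- arrays alone, a replicate block, other scaling, a filter on dim probe sets, another variance model, other probe sets and each 14 d or 21 d array left out. Promoter windows are from RefSeq (GRCm38.p6).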

Additional observations from a re-analysis of the deposited data

Results flagged for a closer look

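Of 118 genes looked at in both Mmp13-/- groups (236 groups of 4 arrays), 23 groups held 1 array far from the other 3. For 4 like arrays chance gives about 1 in 20. That is no chance rate for this set. Many of the genes were picked from the comparison in which replicate 4 of 14 d weighs most, list members can move together, and 14 d mixes 2 series. At 14 d the array that stood apart was replicate 4, the series 2 array, for 10 of the 17: Mmp2 read 9.25 there, Atn1 4.33, Ltbp2 9.03, 6720489N17Rik 3.28, Cdrt4os1 3.45, Samd5 3.48, Sapcd2 2.91, Mx2 5.74, Ngfr 3.23 and Col1a1 12.90. For replicate 4 the labelling series differs from that of the other 14 d arrays, and the part of a single mouse cannot be told apart from it.

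The other 14 d values that stood apart were replicate 3 for Slfn4 (11.06), P4ha2 (9.01), Fpr2 (7.61), Scg2 (4.39) and Alas2 (3.69), and replicate 2 for Irf7 (10.01) and Oscar (3.70). At 21 d they were replicate 4 for Atn1 (2.85), Adra1b (3.96) and Thbs2 (9.39), replicate 2 for Atp6v0d2 (10.92), replicate 1 for Mertk (8.60) and replicate 3 for Oas2 (8.13). No probe set passed the adjusted test by limma for a difference between the genotypes in their change from 14 d to 21 d. Levels of the genotypes on a single day were not tested against each other.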

How the results depend on the processing

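The count of 36 probe sets was 2523 with no series term, 491 on the 8 Mmp13-/- arrays with no term and 18 with it, 206 on the 11 Mmp13-/- arrays and 0 on the series 2 arrays alone (limma; 2912 at an unadjusted p under 0.05). At an unadjusted p under 0.05 with an absolute log2 difference over 1, 173 became 734, 739, 454, 453 and 461 in that order. Leaving out single arrays gave 1 to 337 calls, and 154 to 442 past the thresholds. The WT count of 189 became 4657 with no term, 0 on series 2 alone and 324 without dim probe sets, and ranged from 6 to 671 with single arrays left out. The difference between the genotypes in their change from 14 d to 21 d had 0 calls under each alternative run. The causes were not tested.

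With the replicate number as a block, 4 probe sets passed, 293 were past these thresholds and 1 passed in WT. Deviations of same-numbered arrays correlated at -0.133 to 0.104, so the numbers were not taken as pairs.

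Some differences of genes that did not pass the test turned sign, among them that of Ifi202b, -2.02 with all arrays. Without the series term Col1a1 was 1.40 (adjusted p = 0.0395 on all arrays by limma), Il6 -0.028, Ifi203 -0.25, Prox1 -0.15 and Pdpn 0.21. On the series 2 arrays alone, or Mmp13-/- arrays alone with the term, Col1a1 was 0.13, Cadm1 -0.048, Ifi203 -0.17 and Pdpn 0.042. With arrays centred on their medians Mmp9 was -0.0025, Pdgfd -0.024, Ifi203 -0.038 and Prox1 -0.015. Adamts4 was 0.021 after quantile normalization. With the block Adamts4 was 0.092, Pdgfd -0.25, Ifi203 -0.0025 and Pdpn 0.11. Over all probe sets of a gene the median was -0.06 for Mmp9, 0.005 for Cenpf and 0.25 for Col1a1. With single arrays left out, the ranges that crossed 0 were -0.18 to 0.16 for Adamts4, -0.048 to 1.69 for Cadm1, -0.30 to 0.13 for Col1a1, -3.70 to 0.78 for Ifi202b, -0.17 to 0.35 for Ifi203, -0.80 to 0.64 for Il6, -0.28 to 0.27 for Mmp9, -0.31 to 0.24 for Pdgfd, -0.26 to 0.042 for Pdpn, -1.06 to 0.44 for Prf1 and -0.17 to 0.17 for Prox1. Of the 3171 comparisons of 118 genes with an alternative, 60 turned sign, 97 lost and 120 gained a call.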
